A study of Mus musculus with 14 samples.

Results

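Among 242610 windows of 200 bp that were covered both in extraembryonic endoderm (XEN) cells and in retinoic acid (RA) differentiated cells, 83 (0.0342%) were unmethylated in XEN cells and methylated on H3K4me1 chromatin after RA. These 83 bins, called member bins here, had at least 60 CpG counts over the 4 XEN libraries with a pooled 5mC level under 15%, and at least 30 counts with 5mC of 40% or more in the H3K4me1 library of the RA-differentiated cells. Those measured values chose the bins, so the XEN and RA H3K4me1 levels given here are a description and carry no test. The XEN level pools H3K4me1 and H3K27ac libraries, while the RA level is of H3K4me1 alone. Mark and cell state therefore cannot be told apart in their difference. The other libraries, the peak lists and the positions of the bins were not used to choose them. Positions are those of the mouse build mm9.

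The data came from ChIP-BS-seq. In this assay chromatin carrying a given histone mark is first immunoprecipitated, and bisulfite then converts its unmethylated cytosines, which leaves 5mC readable in the DNA of that chromatin alone. All cells derived from R1, a male mouse ESC line normally kept with LIF and the MEK and GSK3 inhibitors known as 2i. ESCs had been grown for 2 days without 2i, the differentiated cells for 4 days with 1 µM RA and without LIF, and the XEN cells for 9 days in a medium with Activin A and 0.1 µM RA. The study repeated its experiments. Each mark (H3K4me1, H3K27ac) had 1 count file in ESCs and 1 in differentiated cells among those analysed, called a library, which may hold a single repeat or a pool of them, and for XEN cells there were 2 replicates per mark. The XEN file names swap the marks relative to the sample labels, so a XEN library is called here by the mark on its label, and the 4 were pooled. The identity of the cells was not checked against marker genes here, since no gene was assigned to a bin and no expression data of XEN cells were analysed.

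Nucleosomes flanking an enhancer usually carry H3K4me1 even before the enhancer is used, and acquire H3K27ac once it is in use, as those at transcribed promoters do. Active enhancers are usually low in 5mC, while most of the genome outside regulatory elements is methylated in differentiated cells. XEN cells model the extraembryonic endoderm that lines the yolk sac, whereas RA drives ESCs into a mixture of fates. An intermediate 5mC level in such a culture does not show what share of cells or alleles was methylated.

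The ESC and RA libraries held 32305709 to 58803653 CpG counts, and the XEN libraries 12147115 to 31345707. On mitochondrial DNA, which is expected to lack 5mC, 0 to 0.242% of counts were read as methylated in the XEN libraries, 0.383% in ESC H3K4me1, 3.55% in ESC H3K27ac, 3.23% in RA H3K4me1 and 6.44% in RA H3K27ac. The part of these differences in the results was not tested.

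Most bins that were unmethylated in XEN cells were unmethylated after RA too. Of 26781 bins under 15% in XEN cells, 23492 (87.7%) were also under 15% in RA H3K4me1, and the 83 member bins made up 0.310%. The mirror image, 40% or more in XEN cells and under 15% after RA, was found in 1320 bins. Over all covered bins the median difference, RA minus XEN, was -6.84 points, and RA was the lower in 74.3%. All these comparisons set a pool of both marks against H3K4me1, and the part of the marks was not tested. Covered bins had median XEN counts of 23 from the libraries labelled H3K4me1 and 82 from those labelled H3K27ac. In member bins these medians were 50 and 63.

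The member bins lay close to the lower limit for RA, and most were in the upper part of the range allowed for XEN cells. In RA H3K4me1 their 5mC ran from 40 to 86.7% with a median of 44.9%, and 42 of 83 lay between 40 and 45%, 23 at 50% or more and 11 at 60% or more. In XEN cells the pooled median was 10.8%, with 47 bins between 10 and 15% and 16 under 5%. The RA value rested on a median of 41 counts and the XEN value on a median of 112. Intervals printed beside levels and shares are exact 95% (Clopper-Pearson) intervals and cover counting error only. For 5mC they are too narrow where several CpGs come from 1 read, since the authors kept only reads whose CpGs shared 1 state.

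Just outside the limits, 302 bins had XEN 5mC under 15% and RA 5mC between 30 and 40%, 99 of them at 35 to 40%, and 141 bins with RA at 40% or more lay between 15 and 20% in XEN cells. The bin at chr3:104445601-104445800 was inside with 14.1% in XEN cells and 40% in RA H3K4me1, while chr3:104403801-104404000, at 13.9% and 39.7%, was outside. On the XEN side, chr2:169152001-169152200 was inside at 14.9% and chr6:29798801-29799000 outside at 15.0%.

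**Figure D1:**
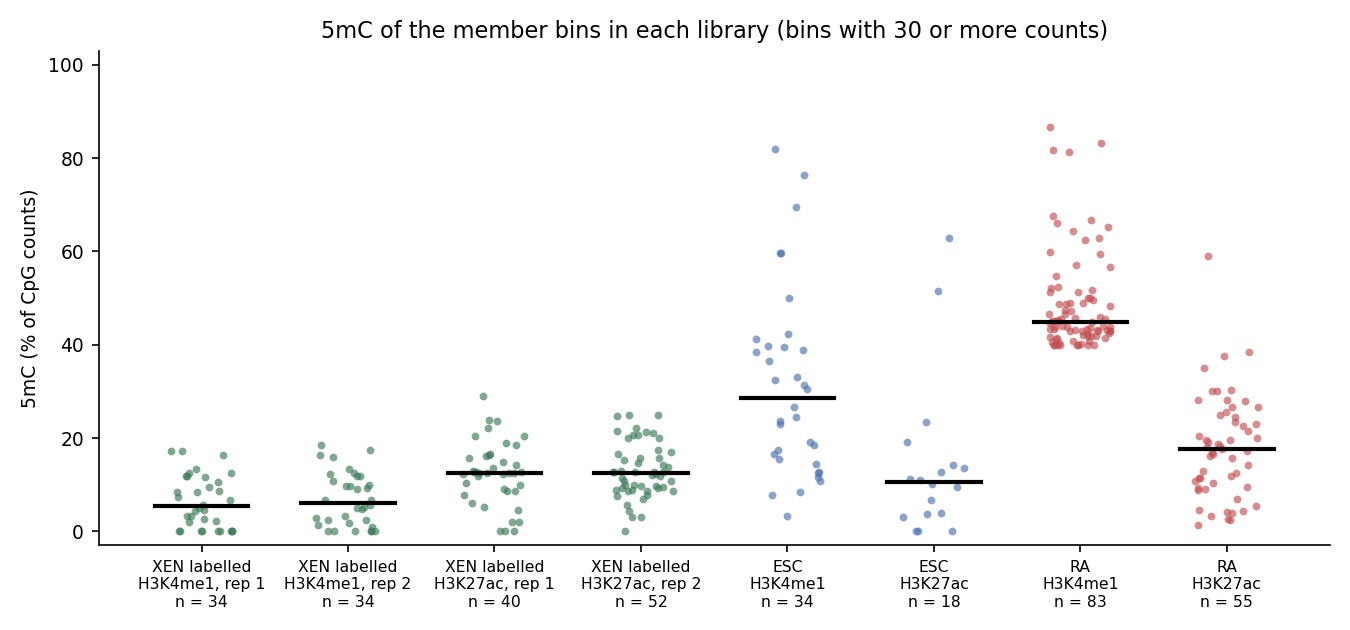
5mC (percent of CpG counts, vertical axis) of the member bins in each of the 8 libraries, with 1 point per bin that had 30 or more counts there and a black line at the median. The points of all 4 XEN libraries lie at the bottom, RA H3K4me1 starts at its limit of 40%, and RA H3K27ac, with a median of 17.6%, lies near the XEN libraries, whose medians run from 5.36 to 12.5%.

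The XEN libraries differed by label within the low pooled level. Pooled over the member bins, 5mC was 6.67% and 7.0% in replicates 1 and 2 labelled H3K4me1 and 13.3% and 13.1% in replicates 1 and 2 labelled H3K27ac. The replicates of a label differed by less than 1 point, and the label pairs by about 6 points. Of 45 member bins with 30 or more counts in both pairs, the pair labelled H3K27ac was the higher in 35, by a median of 6.87 points, against 2.78 points over all covered bins. The pair labelled H3K27ac was itself at 15% or more in 24 of the 70 member bins where it had 30 or more counts, and the pair labelled H3K4me1 in 4 of 58. Member bins also drew more CpG counts from the pair labelled H3K4me1 than covered bins did. The medians were 1.80 against 0.826 CPM (CpG counts scaled to the library total). From the pair labelled H3K27ac they drew fewer, with 1.16 against 1.52. Bins unmethylated in both XEN cells and RA leaned the same way, with medians of 1.33 and 1.20 CPM. Their pooled 5mC was 2.86% in the pair labelled H3K4me1 and 7.43% in the pair labelled H3K27ac. The file names swap the marks, so these are gaps between labels, and which mark was the higher was not tested.

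When the bins were chosen on 1 XEN replicate of each mark, the other replicate returned low but less extreme values. The same limits applied to replicate 1, with 30 counts in place of 60, gave 109 bins. In replicate 2, 106 of them had 30 or more counts, the median 5mC was 17.1%, 49 (46.2%) stayed under 15% and 105 lay below their RA H3K4me1 level. Choosing on replicate 2 gave 135 bins, of which 107 were covered in replicate 1, with a median of 15.2%, 49 (45.8%) under 15% and 106 below RA. Choosing RA at 40% or more largely sets these last counts. Over all covered bins the medians in the replicate not used were 61.7% and 61.8%, 11.3% and 11.4% of bins were under 15%, and 26.3% and 26.9% lay below RA. No such second library existed for RA H3K4me1 here, so the RA side has no replicate check.

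The ESC state of the member bins was mixed. On ESC H3K4me1 chromatin, which the choice did not use, 34 member bins had 30 or more counts, with 5mC from 3.20 to 82.1% and a median of 28.6%. Unmethylated regions (UMRs, under 20% 5mC) made up 13 of the 34 (38.2%, 95% interval 22.2 to 56.4%), another 13 lay between 20 and 40%, and 8 (23.5%, 10.7 to 41.2%) were at 40% or more. Of all 134249 covered bins with 30 or more ESC counts, 50.9% were UMRs, 25.4% lay between and 23.8% were at 40% or more, and of the bins that were unmethylated in both XEN and RA 93.4% were UMRs in ESCs.

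The ESC level was also set against the levels that chose the bins. In 24 of the 34 it lay between the XEN and RA levels, as any ESC level from 15 to 40% must, in 5 it lay above RA and in 5 at or below XEN, and 17 of the 34 were nearer to RA than to XEN. The median difference was 16.7 points for ESC minus XEN and 16.8 points for RA minus ESC, and over all covered bins the same medians were -28.3 points and 16.7 points. The medians of RA minus ESC were thus nearly equal, and the XEN and RA values in both differences were used by the choice. Pooled over all 83 bins, ESC H3K4me1 5mC was 32.6% of 2755 counts. The 34 are the deeper bins: with a minimum of 10 counts, chosen after the values were seen, 57 bins had a median of 36.4%, 15 were UMRs, 23 were at 40% or more and 37 were nearer to RA. Without XEN replicate 1 labelled H3K27ac, the share of UMRs was 24.2% of 33 bins, with only the XEN libraries labelled H3K27ac it was 52.4% of 21, above that of covered bins, and under limits of 10% in XEN cells and 50% in RA it was 0% of 2. For 6 member bins no ESC H3K4me1 count was listed.

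**Figure D2:**
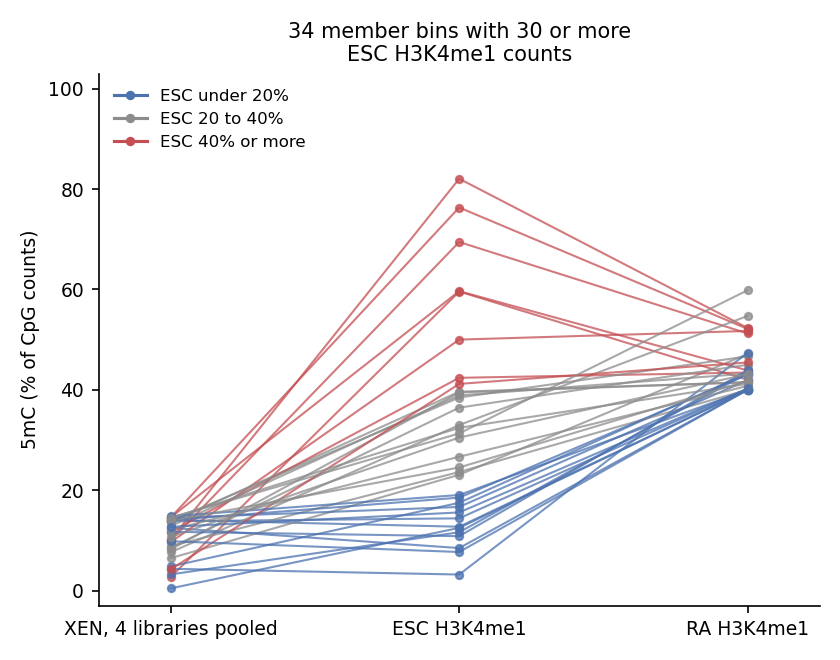
5mC (percent, vertical axis) of the 34 member bins with 30 or more ESC H3K4me1 counts, with 1 line per bin from the pooled XEN libraries over ESC H3K4me1 to RA H3K4me1, coloured by the ESC level. The ends are fixed by the choice of bins, and the middle spreads from 3.20 to 82.1%, with 13 bins under 20%, 13 between 20 and 40% and 8 at 40% or more.

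Bins with 100 or more ESC H3K4me1 counts give the firmest ESC values, and there were 5. At chr13:98785601-98785800, 5mC was 36.4% (27.4 to 46.3%) in ESC H3K4me1, 45.0% in RA H3K4me1 and 8.57% in XEN cells. At chr17:88942401-88942600 it was 24.5% (16.7 to 33.8%) in ESCs, 41.8% after RA and 13.9% in XEN cells. The first bin's ESC interval overlapped that of RA H3K4me1 (29.3 to 61.5%) and not that of XEN cells (3.21 to 17.7%). The second's overlapped both, RA H3K4me1 at 32.9 to 51.1% and XEN cells at 10.6 to 17.7%. At chr3:85776801-85777000 the ESC level of 14.4% (8.89 to 21.6%) was within counting error of the XEN level of 13.8%, against 40.2% (31.0 to 49.9%) after RA. At chr7:129163601-129163800 ESC H3K4me1 was at 3.20% of 125 counts, XEN cells at 4.35% and RA H3K4me1 at 47.4% of 38 counts. The fifth, chr18:42554401-42554600, had 15.6% in ESCs and 40.3% after RA. These last 3 bins were UMRs in ESCs and in XEN cells, and only their RA H3K4me1 level was high among the H3K4me1 and XEN values.

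Some member bins were more methylated in ESCs than after RA. The largest ESC level among bins with 30 counts was at chr2:145613201-145613400, with 82.1% (66.5 to 92.5%) of 39 counts, against 52.3% (39.5 to 64.9%) in RA H3K4me1 and 8.33, 3.85, 6.25 and 17.5% in the XEN libraries labelled H3K4me1, replicates 1 and 2, and H3K27ac, replicates 1 and 2. Its neighbour at chr2:145613601-145613800, the member bin with the most RA H3K4me1 counts, had 59.6% (45.8 to 72.4%) in ESCs, 43.9% (36.3 to 51.6%) of 171 counts after RA and 16.5, 16.3, 13.6 and 12.8% in the 4 XEN libraries in the same order. In both bins the 4 XEN libraries lay below the ESC and the RA H3K4me1 levels.

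After RA, the member bins were far less methylated on H3K27ac chromatin than on H3K4me1 chromatin. RA H3K27ac, which the choice did not use, had 30 or more counts in 55 member bins, with 5mC from 1.32 to 59.1%, quartiles of 9.97 and 24.7% and a median of 17.6%. Of these, 34 were under 20% and 1 was at 40% or more. All 55 lay below their RA H3K4me1 level, by a median of 30.5 points, and 43 (78.2%) by more than 20 points. Over the 39239 covered bins with RA H3K4me1 at 40% or more, the median RA H3K27ac level was 57.1% and 7.98% lay more than 20 points lower. The H3K4me1 side of this difference is the value that chose the bins, so it is given with no test.

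Values were also taken near the limit alone. In the 38 member bins with RA H3K4me1 between 40 and 50%, the median RA H3K27ac level was 17.9% and 27 (71.1%) lay more than 20 points lower, against a median of 39.3% and a share of 8.58% over all covered bins in that range, a comparison chosen after the values were seen. Counting error near a limit raises the chosen values, so the gap in this range is partly set by the choice. In 47 of the 55 bins RA H3K27ac lay nearer to the XEN level than to RA H3K4me1, although in 48 it was above the XEN level. Pooled over all 83 bins it was 16.5% of 5803 counts (15.5 to 17.5%), against 10.1% of 11069 counts in XEN cells and 47.7% of 4540 in RA H3K4me1.

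**Figure D3:**
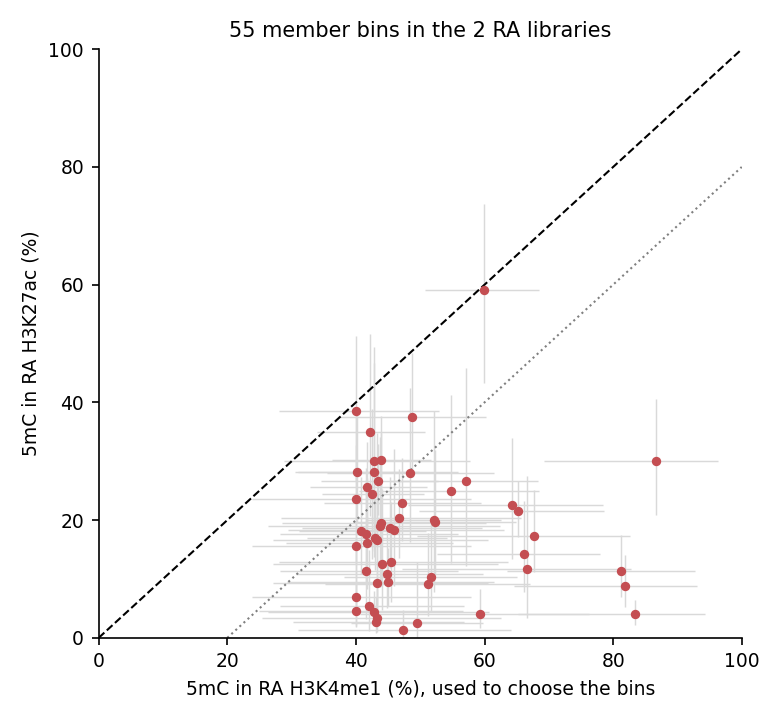
5mC in RA H3K27ac (percent, vertical axis) against 5mC in RA H3K4me1 (percent, horizontal axis) for the 55 member bins with 30 or more RA H3K27ac counts, with exact 95% intervals in grey, a dashed line of equal levels and a dotted line 20 points below it. No point lies above the dashed line and 43 lie below the dotted line.

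Among bins with 60 or more RA H3K27ac counts, the lowest H3K27ac level was at chr7:129163601-129163800, with 1.32% (0.160 to 4.67%) of 152 counts. There ESC H3K27ac was at 3.80% and ESC H3K4me1 at 3.20%, so RA H3K4me1, at 47.4% (31.0 to 64.2%), was the one high library, and the XEN libraries gave 4.35 and 2.50% for the label H3K4me1 and 0 and 10.5% for the label H3K27ac. The next lowest, chr17:68049201-68049400, had 2.74% of 146 counts in RA H3K27ac, 43.1% in RA H3K4me1 and 30.5% in ESC H3K4me1. The third, chr6:113432801-113433000, had 3.33% of 120 counts in RA H3K27ac and 0% of 268 in ESC H3K27ac, against 43.3% of 30 in RA H3K4me1. All 3 bins were under 4% on RA H3K27ac, the level they were named for, and above 40% on RA H3K4me1, the level they were chosen for.

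The highest RA H3K27ac levels at that depth came close to those of H3K4me1. At chr5:28393001-28393200 RA H3K27ac was at 38.5% (26.7 to 51.4%) and RA H3K4me1 at 40% (28.0 to 52.9%). At chr4:45212401-45212600 the values were 37.5% and 48.7%, and at chr2:145613601-145613800 they were 30.3% and 43.9%. In these bins the intervals of the marks overlapped.

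The 4 member bins with RA H3K4me1 over 80%, singled out after their values were seen, had XEN levels next to 0. The bin at chr13:24893201-24893400 had 83.3% (65.3 to 94.4%) in RA H3K4me1, 95% of 20 counts in ESC H3K4me1, 3.9% of 337 in ESC H3K27ac, 4.0% of 375 in RA H3K27ac and 0 and 1.01% in XEN replicates 1 and 2 labelled H3K4me1, the pair labelled H3K27ac having no counts. At chr10:127849201-127849400 the levels were 81.8% in RA H3K4me1, 55.0% of 20 counts in ESC H3K4me1, 12.8% in ESC H3K27ac, 8.9% in RA H3K27ac and 0% in each XEN library. At chr12:110031401-110031600 they were 81.2%, 78.3% of 23 counts, 9.5%, 11.4% and 0% in the same order. In these 3 bins 5mC was higher in the H3K4me1 than in the H3K27ac libraries in ESCs as well as after RA, though ESC H3K4me1 had fewer than 30 counts in each and its interval in the second bin ran from 31.5 to 76.9%. All 3 lay in H3K27ac peaks of both cell states and none in an ESC H3K4me1 peak, and of the 3 only the second lay in an RA H3K4me1 peak. The fourth, chr12:114336401-114336600, had 86.7% in RA H3K4me1 and 90.5% of 21 counts in ESC H3K4me1, and its H3K27ac levels were higher too, at 62.8% in ESCs and 30% after RA, and it lay in H3K27ac peaks of both cell states and in no H3K4me1 peak.

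The change in H3K27ac 5mC between ESCs and RA could be tested in 16 member bins, those with 30 or more counts in both libraries. Fisher's exact test per bin (two-sided, Benjamini-Hochberg over 81592 bins, a difference over 20 points and an adjusted p under 0.05) called 1 member bin higher after RA and 2 lower, against 10.1% higher and 0.37% lower over all bins tested and 21.5% and 0.474% among covered bins. At an unadjusted p under 0.05 there were 6 of 16 (37.5%), against 20.9% of all bins tested and 40.5% of covered bins. When the bins were chosen without XEN replicate 1 or 2 labelled H3K4me1, or without replicate 2 labelled H3K27ac, no member bin was called higher. Lower calls numbered 1 to 2 without each XEN library. With 1 library per cell state, the test compares libraries and not the cell states. It treats each CpG count as independent, so its p-values are too small where several CpGs came from 1 read.

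The bin called higher was chr18:57539401-57539600, which also had the largest difference between RA H3K4me1 and XEN among bins with 100 or more counts in both. Its 5mC was 13.5% of 37 counts in ESC H3K27ac and 59.1% of 44 in RA H3K27ac, a difference of 45.6 points (adjusted p = 0.000404, Fisher's exact test). Its RA H3K4me1 level was 59.8%, its ESC H3K4me1 level 31.3%, and its XEN libraries gave 9.52 and 9.09% for the label H3K4me1 and 23.6 and 10.0% for the label H3K27ac. It was the only one of the 55 bins with RA H3K27ac at 40% or more, so here both marks were methylated after RA.

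The bins called lower had been methylated on H3K27ac chromatin in ESCs. At chr12:114336401-114336600 the level was 62.8% in ESCs and 30% after RA, a difference of -32.8 points (adjusted p = 0.000152, Fisher's exact test). At chr7:117792001-117792200 it was 51.6% of 31 counts and 26.6% of 218, a difference of -25 points (adjusted p = 0.0437, Fisher's exact test), a call next to the threshold. The other 13 tested bins differed by -13.1 to 8.16 points, and the median of all 16 was 0.806 points, against 5.19 over covered bins.

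Within ESCs, the levels on H3K4me1 and H3K27ac chromatin could be compared in 9 member bins. Fisher's exact test called 0 of them in either direction, against 0.0666% higher and 0.0146% lower on H3K4me1 over 96096 bins, while 3 of 9 (33.3%) had an unadjusted p under 0.05, against 5.4% of all bins tested and 4.28% of covered bins. The bin at chr6:113432801-113433000 differed by 17.5 points (17.5% on H3K4me1, 0% on H3K27ac, adjusted p = 0.00167, Fisher's exact test), under the 20 points required. The bin at chr2:75610801-75611000 differed by 26.5 points (50.0% and 23.5%) with an adjusted p of 0.361 by Fisher's exact test, and 1.37% of all bins tested were over 20 points higher on H3K4me1 by the difference alone.

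The H3K27ac signal was compared between ESCs and RA in the member bins with enough counts. The CpG counts per bin, scaled to each library's total, served as the signal, with 1 count added and a minimum of 30 counts over both libraries, which 62 member bins reached. The median log2 ratio of RA to ESC was 2.50 (5.67-fold), 43 of 62 (69.4%, 56.3 to 80.4%) were at least 2-fold higher after RA and 3 were at least 2-fold lower. Of these 43, 41 had fewer than 30 ESC H3K27ac counts and so passed the minimum mainly through RA, which favours a higher ratio, and 21 member bins did not reach the minimum. Over all 329013 bins tested 27.6% were higher and 27.3% lower. Among covered bins, which needed RA H3K4me1 counts themselves, 48.8% were higher and the median log2 ratio was 0.95. Among bins unmethylated in both cell states 34.7% were higher, and among the mirror-image bins 28.4%. With limits of 10% in XEN cells and 50% in RA, 30% of 10 bins were at least 2-fold higher and the median log2 ratio was 0.32, both below the values of covered bins. With 1 library per cell state this ratio has no replicate check and no p.

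**Figure D4:**
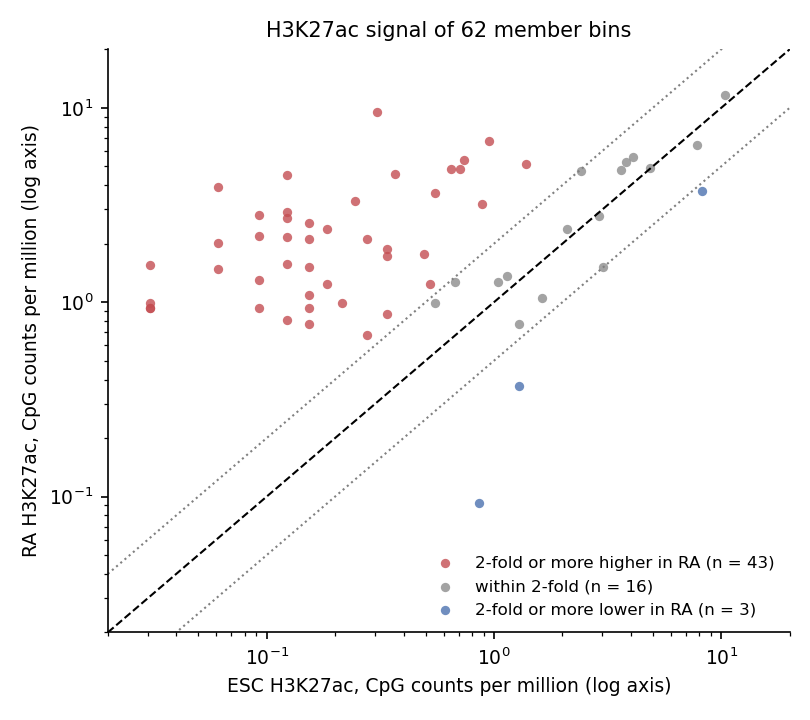
H3K27ac signal after RA (CPM of CpG counts, vertical log axis) against that in ESCs (horizontal log axis) for the 62 member bins with 30 or more counts over both libraries, with a dashed line of equal signal and dotted lines at 2-fold. Of the points, 43 lie above the upper dotted line, most of them at low ESC signal, 16 lie between the lines and 3 lie below.

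The member bins were also split by their H3K27ac counts in ESCs. Of the 83, 18 had 30 or more such counts and 65 had fewer. Fewer counts do not mean no mark, since 39 of the 83 lay in ESC H3K27ac peaks. Counts also depend on how many CpGs a bin holds, which was not examined. In the 18, a median of 86.5 ESC counts and 136 RA counts gave a median log2 ratio of 0.18, with 2 of 18 at least 2-fold higher. In the 65, the medians were 5 and 32 counts, and 41 of the 44 bins with enough counts were at least 2-fold higher, with a median log2 ratio of 3.02. Since ESC counts made the split and also enter the ratio, and bins with few ESC counts reach 30 summed counts mainly through RA, the split and the filter largely fix these ratios.

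The 5mC levels of these groups differed as well. The 18 bins with H3K27ac in ESCs had a median XEN level of 2.78%, and their H3K27ac chromatin was at 9.67% of 2016 counts in ESCs (8.42 to 11.0%) and 11.0% of 2273 after RA (9.78 to 12.4%). On H3K4me1 chromatin the same bins were at 27.8% of 826 counts in ESCs and 53.0% of 959 after RA. The 65 bins with little H3K27ac in ESCs had a median XEN level of 12.0%. Their sparse H3K27ac chromatin in ESCs was at 44.4% of 475 counts (39.9 to 49.0%) and their H3K27ac chromatin after RA at 20.0% of 3530 (18.7 to 21.3%), while H3K4me1 chromatin was at 34.7% in ESCs and 46.3% after RA. In the 65, the pooled H3K27ac value was lower after RA than in ESCs, from 1 library each. These bins were picked for few ESC H3K27ac counts, with a median of 5 per bin. Each pool also weights the bins by their own counts in that library. Covered bins with equally few ESC counts were not compared. Whether 5mC on H3K27ac chromatin changed in the 65 therefore cannot be read from these values and was not tested. The split was made after the values were seen.

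By the ESC H3K4me1 class, among bins with 30 or more summed H3K27ac counts, the ratio of H3K27ac signal was lowest where ESCs were unmethylated. The median log2 ratio was 0.88 in the UMRs (4 of 11 at least 2-fold higher), 2.69 at 20 to 40% (10 of 12) and 2.81 at 40% or more (7 of 8). The 31 bins with fewer than 30 ESC H3K4me1 counts had 3.07. RA H3K27ac 5mC was alike in these classes, with medians of 17.0, 17.9, 16.3 and 17.8%. Bins with few ESC H3K27ac counts reach the minimum mainly through RA, and ESC counts also enter the ratio. The order of the ratios cannot be told apart from that filter, and no test of the difference between classes was made.

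Pairs of neighbouring bins were among those with the most added counts. At chr15:25871201-25871400 H3K27ac counts went from 2 in ESCs to 127 after RA and at chr15:25871401-25871600 from 10 to 306, the latter a log2 ratio of 4.82. RA H3K4me1 was at 67.6% and 65.2% there, RA H3K27ac at 17.3% and 21.6%, and ESC H3K4me1 at 57.7% and 44.8%. In the XEN libraries labelled H3K4me1, replicates 1 and 2, and H3K27ac, replicates 1 and 2, the first bin had 9.09, 7.69, 12.5 and 11.1% and the second 11.9, 5.06, 40 and 25.0%. The second bin thus passed the limit by its pool, at 14.6%, while its libraries labelled H3K27ac lay above it.

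At chr14:63888801-63889000 and chr14:63889201-63889400 H3K27ac counts went from 3 to 91 and from 3 to 71. RA H3K4me1 was at 66.1% and 64.3%, RA H3K27ac at 14.3% and 22.5%. The XEN libraries labelled H3K4me1 were at 2.13 and 2.86% in the first bin and 2.56 and 3.45% in the second, and those labelled H3K27ac at 22.2 and 29.2% and at 24.0 and 26.1%. Here the label pairs of XEN cells stood apart, and the low pooled level came mostly from the pair labelled H3K4me1.

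At chr6:16804201-16804400 and chr6:16805201-16805400 ESCs had almost no counts of either mark, with 2 and 3 for H3K4me1 and 3 and 5 for H3K27ac, so that no ESC state can be read. After RA they had 59 and 160 H3K4me1 counts at 44.1% and 42.5%, and 19 and 49 H3K27ac counts at 21.1% and 24.5%. In the second bin the XEN libraries were at 4.55 and 1.75% for the label H3K4me1 and 11.8 and 8.89% for the label H3K27ac. At chr9:40273001-40273200, a bin with no other member nearby, ESCs likewise had 1 H3K4me1 count and 6 H3K27ac counts, and RA had 142 H3K4me1 counts at 42.3% and 40 H3K27ac counts at 35.0%. Both loci thus had more counts after RA than in ESCs, but the choice itself required RA H3K4me1 counts. The chr9 bin was named for having the most of these among bins with no other member nearby.

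The remaining pair, chr7:117792001-117792200 and chr7:117792201-117792400, was marked in ESCs already, with 92 and 52 H3K4me1 counts at 42.4% and 38.5%. RA H3K4me1 was at 43.4% and 46.7% and RA H3K27ac at 26.6% and 20.3%. XEN replicates 1 and 2 were at 5.0 and 9.84% for the label H3K4me1 and 14.3 and 25.0% for the label H3K27ac in the first bin. The level on H3K4me1 chromatin was thus alike in ESCs and after RA, and XEN cells were the lower.

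Member bins did not form larger domains. With a gap of up to 1000 bp, the 83 bins fell into 78 clusters, 73 of 1 bin and 5 of 2, so that 12.0% of member bins had another within that distance (6.25% when XEN replicate 1 labelled H3K4me1 was left out, and 0% of 13 bins under the limits of 10% and 50%). The same share was 89.2% among all covered bins, 62.4% among bins unmethylated in both cell states and 14.3% among the mirror-image bins. The share depends on how many bins a set holds, so the values are given side by side with no test. A gap of 5000 bp gave the same 5 pairs, and 2 of them were adjacent bins. The bins lay on chromosomes 1 to 19 and X, with a median distance of 11566 kb to the nearest other. Chromosome 15 had the most, 8, or 6.92 per 10000 covered bins, and chromosome 11 had 2, or 1.14 per 10000.

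Covered neighbours nevertheless leaned the same way. Within 1000 bp, 77 member bins had 320 other covered bins, of which 49 (15.3%) had RA more than 20 points above XEN, against 0.964% of all covered bins, and 40.6% had RA below XEN, against 74.3%. These neighbours were next to 29 member bins. Neighbouring bins can share reads, so they are not independent of the bins that chose them.

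The XEN level was higher away from the member bins, by an amount that differed between the label pairs. Pooled over the 4 libraries XEN 5mC was 10.1% in the member bins, 34.4% at 200 to 1000 bp, 52.7% at 1200 to 3000 bp and 58.6% at 3200 to 5000 bp on either side. The pair labelled H3K4me1 was at 6.84, 19.03, 38.3 and 50.7% over these distances, and the pair labelled H3K27ac at 13.2, 45.6, 58.8 and 61.8%. Around the bins unmethylated in both XEN cells and RA, pooled XEN 5mC also was higher with distance, at 5.204, 20.04, 43.5 and 54.5%. At 200 to 1000 bp from those bins, the pair labelled H3K4me1 was at 7.15% and the pair labelled H3K27ac at 33.5%. RA H3K27ac was at 6.27% there and RA H3K4me1 at 25.3%. Around the member bins RA H3K4me1 was nearly flat over the same distances, at 47.7, 44.6, 49.5 and 52.8%. So was ESC H3K4me1, at 32.6, 26.8, 30.9 and 32.9%. RA H3K27ac was at 16.5, 17.9, 24.2 and 33.8%, which at 200 to 1000 bp was close to the pair labelled H3K4me1 and below the pair labelled H3K27ac. The member bins were chosen at their centre, so a dip of XEN there is set by the choice. The nearest band can share reads with them and holds the other bin of each of the 5 pairs, so it is partly set by the choice too.

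**Figure D5:**
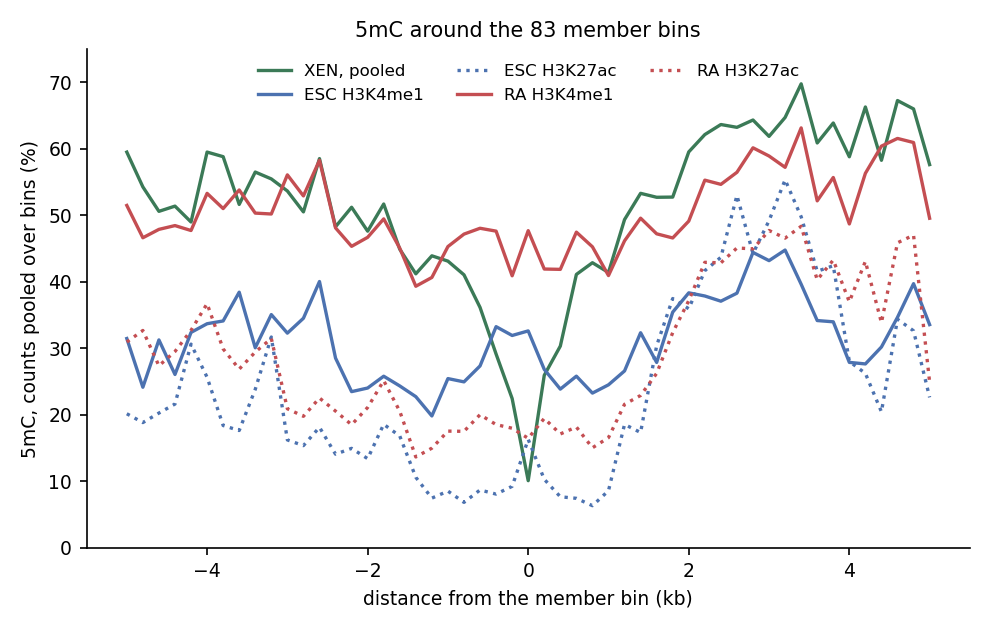
5mC (percent of the counts pooled over all flanking bins, vertical axis) by distance from the member bin (kb, horizontal axis) in pooled XEN libraries and in the H3K4me1 (solid) and H3K27ac (dotted) libraries of ESCs and RA cells. XEN falls from about the RA H3K4me1 level at the sides to 10.1% in the centre, and RA H3K4me1 stays above 39% throughout.

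The overlap of member bins with RA H3K27ac peaks was near that of covered bins. RA H3K27ac peaks, called by the authors, overlapped 78 of 83 (94.0%, 86.5 to 98.0%) by at least 1 bp, against 90.5% of covered bins. RA H3K4me1 peaks, from the library that chose the bins, overlapped 76 (91.6%, against 99.1%). ESC H3K4me1 peaks overlapped 51 (61.4%, 50.1 to 71.9%), against 76.5%, and ESC H3K27ac peaks 39 (47.0%, 35.9 to 58.3%), against 54.9%. An RA H3K27ac peak without an ESC H3K27ac peak covered 40 (48.2%, 37.1 to 59.4%), against 38.4% of covered bins, a share within the interval, and 14.2% of bins unmethylated in both cell states. Peaks of all 4 lists covered 30 (36.1%), against 50.1%.

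The peaks that held member bins were wider and ranked higher by the authors' score than those under covered bins in RA, and narrower and lower for ESC H3K27ac. For RA H3K27ac the median width was 7162.5 bp and the median rank the top 3.25%, against 5011 bp and the top 9.12%. For RA H3K4me1 they were 7580 bp and the top 3.33%, against 5723 bp and 6.62%, and for ESC H3K27ac 3290 bp and the top 22.7%, against 4444 bp and 12.1%. Member bins sat a median of 969 bp from the centre of the RA H3K27ac peak, against 873 bp for covered bins. In CPM, member bins had a median of 1.30 on RA H3K27ac against 0.650 over covered bins, and of 0.869 on RA H3K4me1 against 1.19. In ESCs the medians were 0.184 against 0.276 on H3K27ac and 0.391 against 0.595 on H3K4me1. They were thus above the covered bins on RA H3K27ac and below them on the other 3. Bins unmethylated in both XEN cells and RA had medians of 2.17 on RA H3K27ac and 1.10 on RA H3K4me1. In ESCs theirs were 1.32 on H3K27ac and 0.765 on H3K4me1, so member bins were below those bins in each library.

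In 3 member bins the H3K27ac signal was at least 2-fold lower after RA. At chr2:25174201-25174400 it went from 28 counts to 3, at chr18:42554401-42554600 from 42 to 12 (log2 ratio -1.71) and at chr6:113432801-113433000 from 268 to 120 (-1.14). In the first and the second of these, all 3 and all 12 RA H3K27ac counts were methylated, on fewer than the 30 counts required of a level, and neither bin lay in an RA H3K27ac peak. In ESC H3K4me1 they were at 8.47% and 15.6%.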

How the data were processed

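ChIP-BS-seq libraries of H3K4me1 and H3K27ac from ESCs, RA-differentiated cells and XEN cells were grouped by their sample labels. The authors aligned reads to mm9 with Bismark (Bowtie, and Bowtie2 is also named in the submitters' notes), removed reads whose CpGs had mixed states, and deposited for each 200-bp bin how many CpG counts were methylated and how many unmethylated, without normalization. Whether an ESC or RA file pools several repeats was not established. The methylated column was taken as the one rare on mitochondrial DNA, and it is in the opposite place in the XEN files. XEN files list bins with at least 4 counts, and other bins were taken as 0. The authors called peaks with HOMER, and the deposited peak score was used only to rank peaks within a list.

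5mC was methylated over all CpG counts, with exact 95% intervals. Levels needed 30 counts. Fisher's exact test, adjusted by the Benjamini-Hochberg method, ran over all bins with 30 counts in both libraries. In simulated counts where 200 bins differed by 40 points, it called 94% of these over 81592 bins for H3K27ac (RA against ESC) and 82% over 96096 bins for the marks in ESCs, with 0 and 1 unchanged bins called. The signal was counts plus 1, scaled to the library total, called at 2-fold.

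The member bins, lists and tests were chosen with earlier results of these data known. Bins named were the 6 clusters with the most members, ties going to the larger RA H3K4me1 counts, so 5 pairs and 1 single bin. Also named were the 4 largest RA minus XEN differences with 100 counts in both and the 3 highest and lowest RA H3K27ac levels with 60 counts. The 3 highest and lowest ESC H3K4me1 levels with 100 counts were added, and bins next to the limits, of which 4 are given. Other bins named were chosen after their values were seen. Gene lists, nearest genes and motifs, planned for a reference of the same build, were not analysed here, nor were the input, H3K36me and single-cell RNA samples. Alternatives were other coverage minimums, limits, XEN libraries, peaks, chromosomes, scalings and gaps. The tools were numba 0.67.0, scipy 1.17.1, numpy 2.4.6 and pandas 2.3.3 under Python 3.11.15, with matplotlib 3.10.9 for figures.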

Additional observations from a re-analysis of the deposited data

How the results depend on the processing

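The number of member bins was 20 with 100 XEN and 60 RA counts, 13 with limits of 10% and 50%, and 185 with the XEN libraries labelled H3K4me1 only. It was 59 to 84 when each XEN library was left out in turn. The ESC share under 20% was 20.0% of 10 bins at the higher counts and 0% of 2 bins under the stricter limits, and 52.4% of 21 bins with only the XEN libraries labelled H3K27ac (24.2 to 45.8% without each XEN library). The share with H3K27ac at least 2-fold higher was 94.4% of 18 bins at the higher counts and 30% of 10 bins under the stricter limits (60.4 to 72.6% without each XEN library). The median log2 ratio ran from 0.32 to 2.81 over 14 alternatives, and the lowest, under the stricter limits, was below the 0.95 of covered bins. The share of bins near another was 0% under the stricter limits and 4.82% for adjacent bins alone (6.25 to 11.9% without each XEN library).

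Calls of H3K27ac 5mC were few. Higher calls numbered 0 under the stricter limits, with only the XEN libraries labelled H3K27ac and with 60 counts, 3 with only those labelled H3K4me1, and 0 to 1 without each XEN library. Lower calls numbered 1 at the higher counts, under the stricter limits, in RA H3K4me1 peaks only and with 60 counts, 0 with only the XEN libraries labelled H3K27ac, and 1 to 2 without each XEN library. Within ESCs, H3K4me1 was called higher in 1 bin with only the XEN libraries labelled H3K4me1, in 2 with 20 counts and in 1 without the test. The causes were not tested beyond the smaller or larger number of bins that each alternative leaves. No paired analysis was possible because the replicate numbers are shared only by the XEN marks, which no test compared. The results rest on 1 RA H3K4me1 library at a median of 41 counts per bin.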
